A study of Mus musculus with 58 samples.

Results

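Insulin wells were single cells of the mouse embryonic pancreas, sorted at embryonic stages E13.5 and E14.5 (days of gestation), in which the insulin genes Ins1 and Ins2 together made up at least 1% of all transcripts and at least 3 times those of Gcg, Sst, Ppy and Ghrl each. The last 4 genes encode glucagon, somatostatin, pancreatic polypeptide and ghrelin, the hormones of the other islet cells. Of the 1363 wells kept on 4 plates, with at least 2000 transcripts and 500 genes each, 114 met this rule. The whole series held 4318 kept wells on 15 plates. The rule read only the 6 hormone genes, so their values describe the selection and were not tested, and these genes were left out of every comparison and of the library totals.

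The study profiled embryonic pancreas by SORT-seq, in which sorted cells are lysed one per well of a 384-well plate and their transcripts are counted with unique molecular identifiers. Per the labels, embryos were taken from pregnant mice carrying mip-gfp, and each stage gave a plate of live cells (negative for a viability dye) and a plate gated on GFP intensity. MIP-GFP is a transgene with GFP under the mouse insulin promoter, so the GFP gate and the insulin rule read related promoters. Strain, the genotype of each embryo, the number of embryos or litters and their sex are not given in the labels used here. The E13.5 plates belong to the experiment coded EP12 and the E14.5 plates to EP14. Each stage was therefore measured in 1 experiment. The p-values of the comparisons within these plates rest on 2 experiments, with an error borrowed in large part from the spread over all genes. They do not measure the spread within a stage. No agent was applied, and all groups share the reporter.

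Insulin is made by beta cells. In the mouse these cells arise from endocrine precursors that pass through a Neurog3 stage and then a Fev stage before they switch on a hormone. Glucagon cells appear earlier than most insulin cells and are held apart from them by opposing transcription factors, among them Pax4, Pdx1 and Nkx6-1 on the beta side. Proinsulin folds in the endoplasmic reticulum, is cut by the convertases Pcsk1 and Pcsk2 and is stored in granules.

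The sequence before the start of Ins1 is shown because insulin promoter activity was read both by the reporter and by the gene. It covers the 250 bases upstream of the RefSeq start (GRCm38.p6, plus strand, chr19:52264047-52264296). Capitals mark the letters GCCATCTG, an E-box once in this window, 86 bases before the start, and the TAAT core (ATTA on the other strand), found 3 times and bound by homeodomain factors such as Pdx1.
Ins1: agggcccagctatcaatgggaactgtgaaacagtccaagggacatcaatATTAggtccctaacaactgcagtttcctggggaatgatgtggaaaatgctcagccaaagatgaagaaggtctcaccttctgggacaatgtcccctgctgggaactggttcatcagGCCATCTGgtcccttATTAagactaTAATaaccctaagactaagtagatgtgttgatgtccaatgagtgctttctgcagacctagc
Of the 27025 genes with a RefSeq promoter window, 1.27% held GCCATCTG on either strand and 58.5% held TAAT. A match of letters is a description of the window and shows no binding.

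On the E13.5 MIP-GFP plate 46 of 362 kept wells were insulin wells, 12.7% (Wilson 95% interval 9.66 to 16.5). The E14.5 MIP-GFP plate held 60 of 335, 17.9% (14.2 to 22.4). The live plates held 3 of 347 at E13.5, 0.865% (0.294 to 2.51), and 5 of 319 at E14.5, 1.57% (0.671 to 3.62). Insulin wells thus came almost wholly from the GFP sort, and the intervals of the 2 stages overlapped within each sort. These intervals cover counting error only, and the share on a MIP-GFP plate also depends on where the GFP gate was set.

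Insulin took 1.12% of the transcripts in the lowest E13.5 insulin well of the MIP-GFP plate, 2.58% in the median well and 6.78% in the highest. At E14.5 the lowest, median and highest shares were 1.03%, 2.66% and 5.23%. The median was almost the same at both stages. Just inside the limit lay E13.5 wells at 1.12%, 1.15% and 1.15%, and E14.5 wells at 1.03%, 1.07% and 1.08%. Just outside lay wells at 0.935%, 0.929% and 0.890%, and at 0.992%, 0.981% and 0.867%. The limit therefore cut a continuous range. In the wells that were not chosen, the median insulin share was 0.015% and 0.0281% at the earlier and the later stage. At least 1 insulin transcript was found in 83.9% and 98.5% of them. On the live plates 10.2% and 36.3% of such wells did. On the MIP-GFP plates, wells rich in transcripts of immune, endothelial or mesenchymal cells held Ins2 in 67.3% and 94.1% of cases. Their medians were 1 and 4 Ins2 transcripts, so a few insulin transcripts did not set a well apart.

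**Figure D1:**
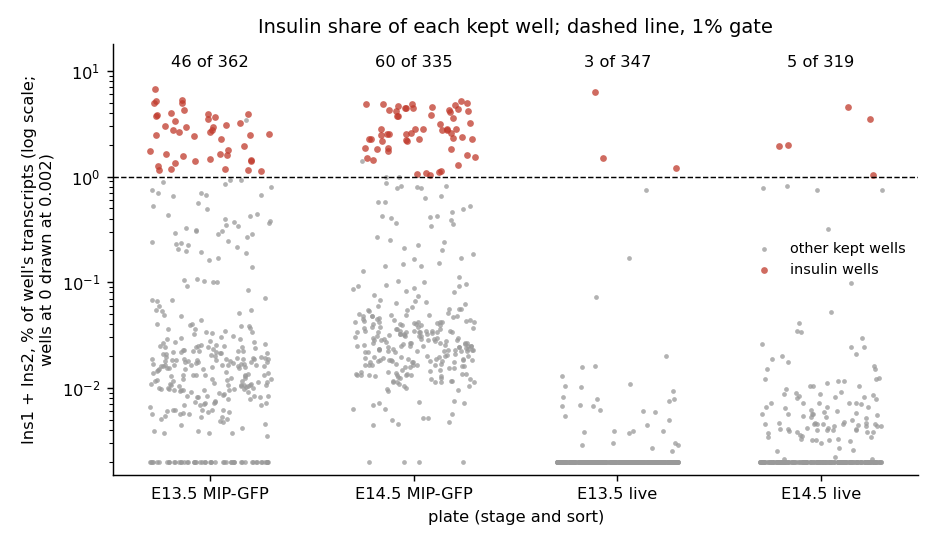
Share of Ins1 plus Ins2 among all transcripts (percent, log axis) in each kept well of the 4 plates, with insulin wells coloured and the dashed line at 1%. Insulin wells form the upper end of a continuous range, with medians of 2.58% and 2.66% on the MIP-GFP plates.

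Ins2 gave more transcripts than Ins1 in most insulin wells. Ins1 reached 14.4, 162 and 585 transcripts in the lowest, median and highest E13.5 well, and 2.01, 215 and 666 at E14.5. Ins2 reached 28.5, 361 and 961 at E13.5, and 21.9, 618 and 1597 at E14.5. Ins1 made up a median of 35.2% of the insulin transcripts at E13.5 (8.99% to 70.2%) and 24.5% at E14.5 (1.25% to 58.8%). It exceeded 50% in 7 of 46 and in 3 of 60 wells, so the balance of the genes differed widely from cell to cell. The value 1597 is the ceiling of the deposited scale and was reached in 2 E14.5 wells. Ins1 and Ins2 are near-identical copies, and how reads were divided between them is not described in the sources used here.

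Glucagon transcripts were found in every MIP-GFP insulin well, but few of them. Gcg gave 2.01, 14.4 and 38.8 transcripts in the lowest, median and highest E13.5 well, and 2.01, 32.5 and 105 at E14.5. Wells rich in transcripts of immune, endothelial or mesenchymal cells, which should not make glucagon, held a median of 8.0 and 23.5 Gcg transcripts on the same plates, and 98.2% and 100% of them held any. Gcg in insulin wells was thus less than 2 times the level of wells of other lineages, at the median. Sst was detected in 7 of 46 and 28 of 60 insulin wells, Ppy in 13 and 12, and Ghrl in 4 and 9. On each MIP-GFP plate 1 well passed the 1% limit but failed the ratio: it held 3.42% insulin and 82 Gcg transcripts at E13.5 (ratio 2.93), and 1.40% and 172 at E14.5 (ratio 2.68).

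The plates held between 6619395 and 8247765 transcripts in kept wells. Insulin wells were deeper than the other kept wells on the MIP-GFP plates, with a median of 21030 against 17527 transcripts at E13.5 and 29972 against 22800 at E14.5. Of the kept MIP-GFP wells, 55 at E13.5 (15.2%) and 68 at E14.5 (20.3%) held at least 30 transcripts of a list of immune, endothelial or mesenchymal markers; they are called marker-rich wells below. No insulin well was among them. The 10 immune markers summed to between 0 and 4 transcripts per insulin well at E13.5 and between 0 and 7 at E14.5, against up to 442 and 569 in other wells. Mesenchymal markers summed to at most 8 and 20, against up to 85 and 675, and endothelial markers to at most 1 and 4, against up to 7 and 265. No well of the 4 plates held the same values as another.

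The label of an insulin cell was checked on genes the rule did not use. Slc2a2 (mm10, chr3:28697903-28731359) encodes the glucose transporter of mouse beta cells, and Sytl4 (chrX:133936385-133981812) encodes granuphilin, which docks insulin granules. After each well was thinned to 2000 transcripts, Slc2a2 was detected in 23.9% of E13.5 and 30% of E14.5 insulin wells, and in 0 of 55 and 1.47% of marker-rich wells (0 of 55 allows a share of up to 5.45%). Sytl4 was detected in 73.9% and 73.3% of thinned insulin wells, against 0 of 55 and 4.41% of marker-rich wells. Without thinning, 80.4% and 91.7% of insulin wells held Slc2a2, beside 3.64% and 7.35% of marker-rich wells. For Sytl4 these shares were 100% and 98.3%, beside 9.09% and 30.9%. The marker-rich wells had median depths of 15652 and 23190 transcripts. Some of them also held many endocrine transcripts, with highest values of 76 and 164 for Chga (medians 1 and 1). Whether these were mixed wells was not tested. The median unthinned insulin well held 2.5 and 7 transcripts of Slc2a2, and 17.5 and 26 of Sytl4. Both markers were found more often in insulin wells than in marker-rich wells, but not in insulin wells alone. After thinning, Fev wells (defined below, here without marker-rich ones) held Slc2a2 in 12.3% and 5.88% of cases. They held Sytl4 in 25.5% and 26.5%.

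For tests across genes, the transcripts of the insulin wells of a MIP-GFP plate were summed, giving 1 sum per stage, and levels are given as CPM, counts scaled to the total of non-hormone transcripts of that sum. The first comparison set these sums against the sums of all other kept wells of the same plates (316 at E13.5 and 275 at E14.5), with the experiment as a block. It asks how these insulin wells differed from the rest of the GFP gate. Fold changes are log2 differences with the standard error (SE), and a gene was called at a Benjamini-Hochberg adjusted p under 0.05 in edgeR's quasi-likelihood test. The fit left 1 residual degree of freedom, so the error is borrowed almost wholly from the spread over all genes. Of 12003 genes tested, 2040 (17.0%) were higher in insulin wells and 2326 (19.4%) lower. Without the marker-rich wells, a comparison added after the data were seen, 1608 were higher and 1381 lower.

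Genes with various roles were among those higher in insulin wells, including abundant ones such as Npy, Nnat and Iapp. Npy (chr6:49822710-49829507), which encodes neuropeptide Y, stood at 2022 CPM at E13.5 and 2418 at E14.5 in insulin wells, against 52.0 and 99.7 in the other wells. The groups were far apart at both stages, with a log2 difference of 5.00 ± 0.082. Nnat (chr2:157560078-157562522), an imprinted gene for a small membrane protein of the endoplasmic reticulum, gave 12236 and 11027 CPM against 1096 and 831 (3.70 ± 0.064). Nnat lies within Blcap on the opposite strand, and the strand used in counting is not given in the sources used here. Iapp, which encodes the amylin that is released with insulin, gave 9481 and 10345 CPM against 2001 and 2578 (2.22 ± 0.060). These are among the most abundant transcripts of the cells, and their levels differed little between the stages.

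Less abundant genes showed the steepest differences. Syndig1l (chr12:84677277-84698831) gave 166 and 175 CPM in insulin wells against 4.32 and 6.31 in the others (5.08 ± 0.18). Derl3 (chr10:75893413-75895941), which helps to pull misfolded proteins out of the endoplasmic reticulum, gave 126 and 141 CPM against 7.74 and 3.79 (4.68 ± 0.19). Slc2a2 gave 226 and 272 CPM against 29.4 and 20.8 (3.44 ± 0.13, adjusted p = 3.15e-155 by edgeR's quasi-likelihood test), and Sytl4 gave 912 and 882 against 91.8 and 76.4 (3.52 ± 0.084). In each of these genes both insulin sums lay above both other sums. C2cd4a (4.89), Tmem215 (4.47), the collagen VI gene Col6a3 (3.97), Prss53 (3.97, a gene that overlaps Zfp646), Arhgap36 (3.85) and the purine receptor gene P2ry1 (3.74) completed the list chosen by the naming rule.

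**Figure D2:**
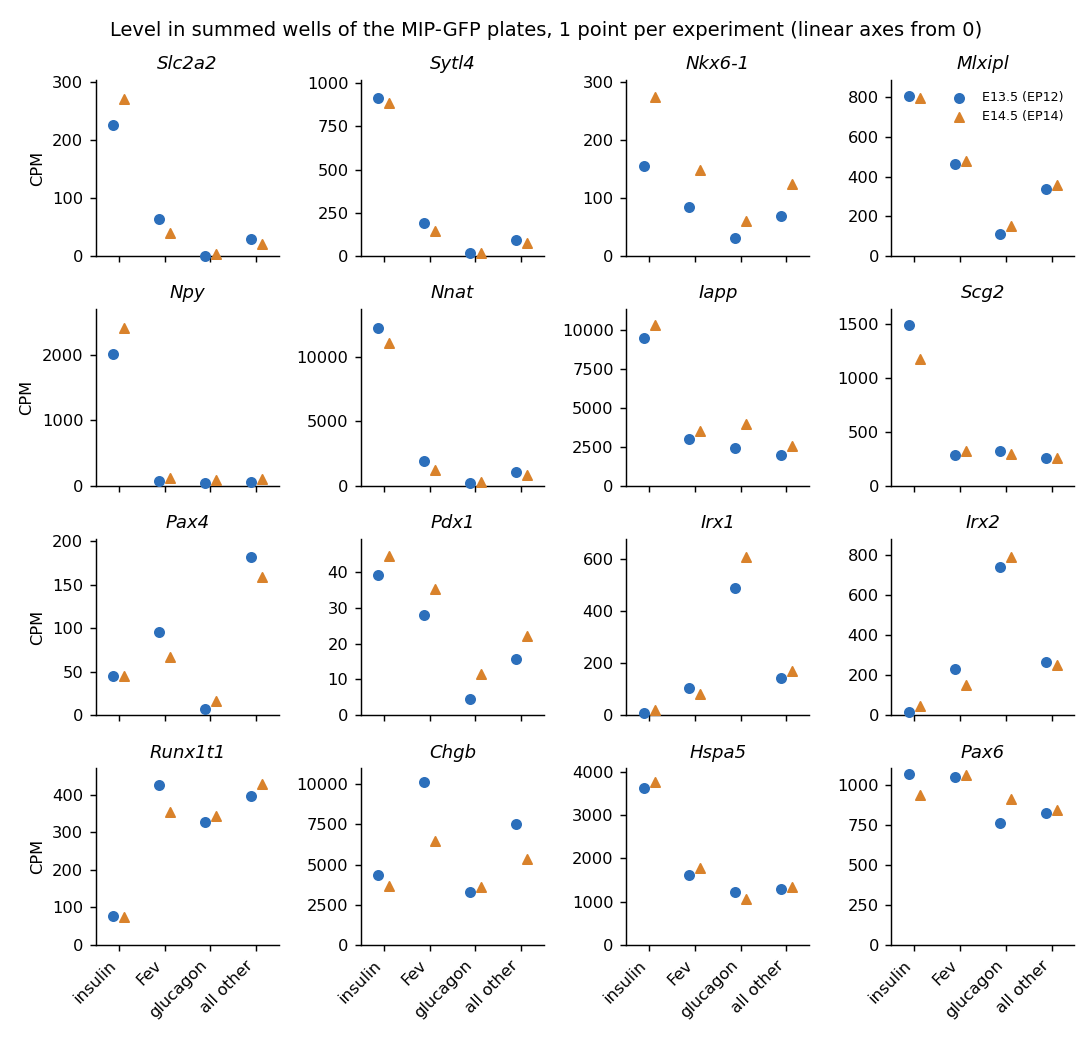
Levels of 16 genes (CPM of non-hormone transcripts) in the sums of insulin wells, Fev wells, glucagon wells and all other wells of the MIP-GFP plates, with a circle for E13.5 and a triangle for E14.5. Npy, Nnat, Slc2a2 and Sytl4 are highest in insulin wells at both stages, while Irx1 and Irx2 are lowest there.

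Beta-cell transcription factors went both ways, and the well-known ones moved less than the genes above. Nkx6-1, which holds beta-cell identity, gave 155 and 275 CPM in insulin wells against 69.0 and 125 (1.25 ± 0.11). Pdx1 gave 39.1 and 44.5 CPM against 15.9 and 22.3 (1.21 ± 0.22, adjusted p = 2.63e-07 by edgeR's quasi-likelihood test). Without thinning it was found in 50% and 63.3% of insulin wells, beside 30.2% and 47.1% of Fev wells that were not marker-rich. After thinning these shares were 0 of 46 and 11.7%, beside 5.66% and 8.82%. The 0 of 46 allows a share of up to 6.52%. Mlxipl (chr5:135089890-135138382), the glucose-responsive factor ChREBP, gave 804 and 796 against 336 and 359 (1.30). Pax6 was higher by only 0.35, a call lost without the marker-rich wells (0.08). Pax4, which acts early in the beta lineage, was lower in insulin wells, at 45.4 and 45 CPM against 182 and 159 (−1.79 ± 0.14), as were St18 (−0.60) and Rfx6 (−0.25), the last not called with DESeq2 or without the block. In all, 7 of the 18 factors tested were higher and 3 lower, beside 17.0% and 19.4% of all genes. The list's median was 0.12 beside −0.016 over all genes. Without the marker-rich wells 4 were higher and 7 lower, with a median of −0.15, so the sign of the list's median rested on those wells.

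Genes of glucose sensing and of hormone release were higher more often than lower. Of 17 genes for glucose sensing, ion channels and receptors, 9 were higher and 1 lower, with a median of 0.68. Without the marker-rich wells 8 were higher and 2 lower (median 0.41). G6pc2, the islet glucose-6-phosphatase, gave 2.60, the cation channel gene Trpm5 2.58 and the adrenergic receptor gene Adra2a 2.51. The sulfonylurea receptor gene Abcc8 differed less (0.78), and the prostaglandin receptor gene Ptger3 was lower (−1.45; not called with DESeq2 or without the block). Of 14 genes tied to beta-cell maturation, 11 were higher and 1 lower, with a median of 1.63; among these, Ucn3, a late marker of beta cells, gave 1.44 and the zinc transporter gene Slc30a8 0.82. Of 16 exocytosis genes 12 were higher (median 0.57), and 8 without the marker-rich wells (median 0.30).

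Most granule genes were higher in insulin wells, but 2 abundant ones were lower. Of 19 genes for granule cargo and prohormone processing, 15 were higher and 3 lower (median 0.89). Scg2 (chr1:79434669-79440120), a secretogranin, gave 1489 and 1179 CPM in insulin wells against 255 and 253 (2.48 ± 0.074). Chga gave 0.79, Pcsk1 1.29 and Pcsk2 0.89. Chgb, another granin, was lower, at 4359 and 3651 CPM against 7507 and 5327 (−0.57 ± 0.059), and Pam, which amidates peptides, was lower too (−0.49). When the live plates were pooled with the MIP-GFP plates on both sides, these differences turned to 0.30 for Chgb and 0.32 for Pam.

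Precursor and alpha-cell genes were lower more often than higher in insulin wells, while other peptide hormone genes went both ways. Of 23 endocrine precursor genes 12 were lower and 3 higher (median −0.48). Neurog3, which starts the endocrine fate, gave 17.9 and 11 CPM in insulin wells against 576 and 509 (−5.20 ± 0.15). Fev gave 199 and 159 CPM against 688 and 516 (−1.64). Neurog3 was found in 8.7% and 1.67% of thinned insulin wells, and Fev in 41.3% and 31.7%, with Fev also in 15% and 17.6% of marker-rich wells. Of 20 alpha-cell genes 12 were lower and 2 higher (median −0.89), among them Irx1 (−3.18) and Irx2 (−2.85). Of 9 markers of delta, epsilon and PP cells 6 were lower, including Hhex, a delta-cell factor (−4.39). Of 12 other peptide hormone genes 5 were higher, such as Gip (1.84; not called with DESeq2), and 7 lower, such as Cck (−1.58) and Gast (−1.86; not called with DESeq2).

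Most genes of dividing cells were lower in insulin wells, though their transcripts were not absent. The 30 genes of this list summed to a median of 16 transcripts per insulin well at E13.5 and 30.5 at E14.5, beside medians of 15 and 23 in the other wells. The highest sums were 38 and 62 in insulin wells and 448 and 661 in other wells. Mki67, a marker of dividing cells, was found in 2 of 46 insulin wells at E13.5 and 3 of 60 at E14.5, with at most 2 transcripts in a well. Top2a was found in 3 and 8 wells, and Cdk1 in 3 and 11, with at most 4 transcripts. Marker-rich wells of the same plates reached 47 and 49 Mki67 transcripts. The Mki67 level was 2.11 and 2.31 CPM in insulin wells against 65.0 and 63.0 (−4.71 ± 0.34), and 27 of 29 genes of dividing cells were lower, with a median of −2.17. Without the marker-rich wells 8 of 23 were lower (median −0.59), and Top2a went from −3.14 to −0.29 and Pcna from −1.16 to −0.18. The genes with the lowest values by the naming rule were Clec4n, Fcgr1, Fcrls, Lyz1 (−6.77), Lyz2, Ednrb, Cybb, Aif1, Fcgr3 and Mpeg1, most of them genes of macrophages. All 10 immune markers tested were lower (median −5.06), and the marker-rich wells were chosen on such genes. Cdkn1a, a cell cycle inhibitor, was also lower (−2.36), and Ccnd1, a D cyclin, went from −3.23 to −0.73 without the marker-rich wells.

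Genes for protein folding in the endoplasmic reticulum were higher almost throughout. Of 25 such genes tested, 24 were higher in insulin wells and 1 lower, with a median of 1.58 beside −0.016 over all genes. Without the marker-rich wells 23 were higher (median 1.56), and over all alternatives the count of higher genes was 23 or 24. Hspa5, the chaperone BiP, gave 3624 and 3760 CPM in insulin wells against 1297 and 1349 (1.58 ± 0.064). Sdf2l1, a BiP cofactor, gave 182 and 210 CPM against 25.8 and 24 (3.09 ± 0.13). Creld2 (2.65), Ero1lb, the oxidase that helps to form the disulfide bonds of insulin (2.64), Hyou1 (2.53), Calr (1.64), Hsp90b1 (1.56), Edem1 (1.52) and Canx (0.99) were higher too. The stress factors moved unequally. Xbp1 gave 0.76, Ddit3 1.53 (a gene that overlaps Mars) and Atf4 0.23, the last not called without the marker-rich wells (0.20). Atf3 was lower, at 2.11 and 21.4 CPM against 8.82 and 119 (−2.35; not called without the block). Bhlha15, the secretory-cell factor Mist1, was higher, at 38.0 and 65.2 CPM against 14 and 8.0 (2.44 ± 0.23, adjusted p = 3.69e-24 by edgeR's quasi-likelihood test).

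Because these genes moved together, their promoters were read for the endoplasmic reticulum stress element, the letters CCAAT and CCACG with any 9 bases between them, which the factors Atf6 and Nfya/b/c are known to bind. RefSeq windows (GRCm38.p6, the 250 bases before the start, both strands searched) were found for 23 of the 26 genes on the list. Of these, 9 (39.1%) held the element, against 35 of 27025 genes (0.13%). They are printed below with 10 bases on each side, along the gene's own strand, with the fixed letters in capitals. In Calr, Creld2 and Derl3 the element runs in the reverse direction, as CGTGG and ATTGG.
Hspa5 (chr2:34772015-34772053, plus strand): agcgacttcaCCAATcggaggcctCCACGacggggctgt
Hsp90b1 (chr10:86705628-86705666, minus strand): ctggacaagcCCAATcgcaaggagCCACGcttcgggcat
Pdia6 (chr12:17266481-17266519, plus strand): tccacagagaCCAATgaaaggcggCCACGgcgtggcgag
Calr (chr8:84847065-84847103, minus strand): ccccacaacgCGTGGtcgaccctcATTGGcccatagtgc
Canx (chr11:50325790-50325828, minus strand): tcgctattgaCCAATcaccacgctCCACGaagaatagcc
Dnajc3 (chr14:118937817-118937855, plus strand): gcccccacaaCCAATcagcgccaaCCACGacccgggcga
Creld2 (chr15:88819510-88819548, plus strand): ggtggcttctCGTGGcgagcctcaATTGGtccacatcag
Syvn1 (chr19:6046522-6046560, plus strand): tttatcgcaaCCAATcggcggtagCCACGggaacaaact
Derl3 (chr10:75893232-75893270, plus strand): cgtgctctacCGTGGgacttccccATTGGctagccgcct
The elements lay between 44 and 212 bases before the start, closest in Syvn1 and farthest in Hsp90b1, whose window held 2 copies. A match shows no binding, and the list was chosen for its function, so the share says only how often these letters stand in front of such genes.

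**Figure D3:**
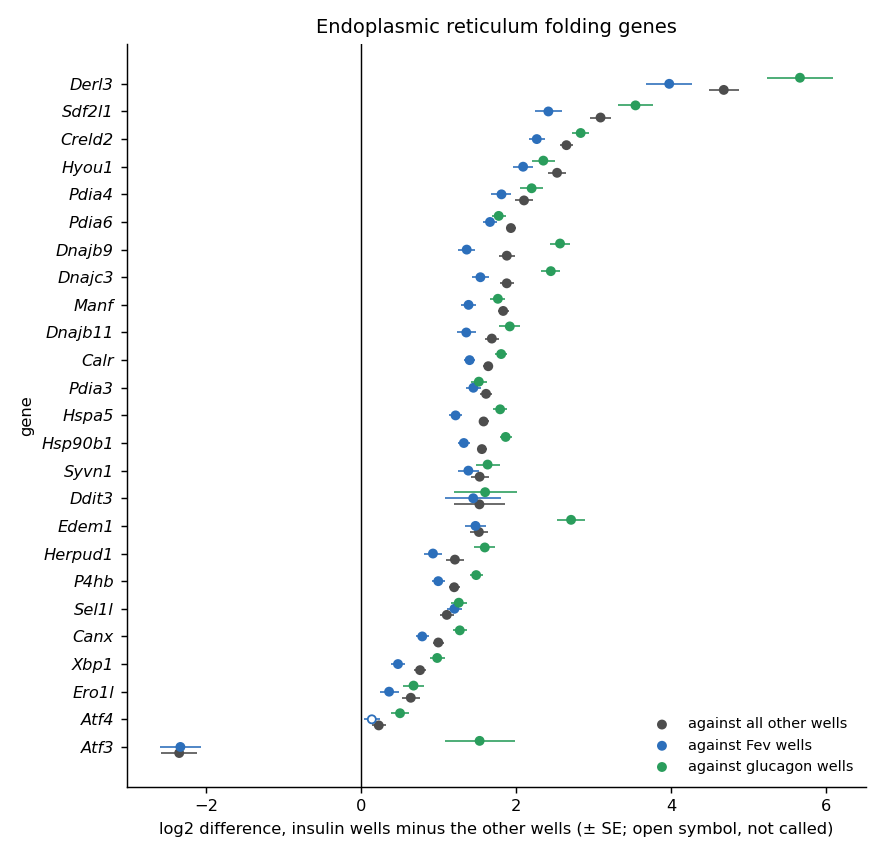
Log2 difference (± SE) of 25 genes of protein folding in the endoplasmic reticulum between insulin wells and, in turn, the other MIP-GFP wells, Fev wells and glucagon wells; open symbols were not called. Nearly all points lie above 0 in each comparison, with medians of 1.58, 1.38 and 1.77.

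The second comparison set insulin wells against Fev wells of the same plates, a group meant to hold precursors late in the endocrine path. Fev wells held at least 2 Fev transcripts and no Neurog3 and lay outside every hormone gate. This low limit does not mark precursors by itself. Insulin wells held a median of 3 and 4 Fev transcripts, and glucagon wells 4 and 6.5. Fev wells that were not marker-rich held 8 and 10.5. There were 116 at E13.5 and 80 at E14.5. Fev and Neurog3 chose these wells and were left out. This fit and the next used 8 sums with 3 residual degrees of freedom, and both share the insulin sums with the first comparison, so the 3 comparisons are not independent. Of 11575 genes, 1135 (9.81%) were higher in insulin wells and 1300 (11.2%) lower. Without marker-rich wells 998 were higher and 653 lower. With at least 10 Fev transcripts, a setting also added after the data were seen, 1016 were higher and 622 lower. In that fit Chga, Mest, Gast, Lyz1 and Mki67 were no longer called, while Slc30a8 and Neurod1 were.

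Npy again stood far above, at 80.5 and 121 CPM in Fev wells against the insulin levels given above (4.59 ± 0.18, adjusted p = 2.32e-09 by edgeR's quasi-likelihood test). Nnat gave 1933 and 1187 CPM in Fev wells (3.00 ± 0.16), Slc2a2 63.8 and 40.5 (2.34 ± 0.21, adjusted p = 1.48e-06 by the same test) and Sytl4 191 and 145 (2.50 ± 0.15). Fev wells thus held part of the Slc2a2 and Sytl4 level of insulin wells, more than the glucagon wells described below. The Fev sums also included wells just under the insulin limit. In Fev wells that were not marker-rich, Ins2 had a median of 3 transcripts at E13.5 and 6 at E14.5. These medians were near those of glucagon wells (2 and 5) and marker-rich wells (1 and 4). In the highest of these Fev wells Ins2 reached 203 and 347. How much of the Slc2a2 and Sytl4 level in the Fev sums came from such wells was not tested. Syndig1l (4.36), Col6a3 (4.32), Derl3 (3.97 ± 0.30), Prss53 (3.58), C2cd4a (3.58), Tmem215 (3.47), the receptor gene Cntfr (3.47) and Arhgap36 (3.44) were also higher by at least 10-fold.

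Most beta-cell factors were not called against Fev wells. Of 18 tested, 3 were higher and 2 lower (median 0.02), beside 9.81% and 11.2% of all genes. Without marker-rich wells 3 were higher and 5 lower (median −0.14). Nkx6-1 (0.97 ± 0.12) and Mlxipl (0.85) were among the higher ones. Pdx1 gave 28.1 and 35.2 CPM in Fev wells and a difference of 0.47 ± 0.25 that was not called (adjusted p = 0.214 by edgeR's quasi-likelihood test). Neurod1 gave −0.22 and was not called, but it was called lower in 5 alternatives, among them the fit without marker-rich wells (−0.35). Pax4, at 95.2 and 67.3 CPM in Fev wells, was lower in insulin wells (−0.73 ± 0.20, adjusted p = 0.0161 by the same test), a call lost with DESeq2 and without the block. St18 was lower as well (−0.74). The Nkx6-1 call was lost without the block.

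Of 20 endocrine precursor genes tested against Fev wells, 6 were higher in insulin wells and 4 lower (median 0.18). By number of calls, alpha-cell genes differed more often than beta-cell factors. Of 20 alpha-cell genes 11 were lower in insulin wells and 2 higher (median −0.87). Irx1 gave 105 and 82.6 CPM in Fev wells against 9.50 and 20.8 in insulin wells (−2.39), and Irx2 230 and 151 against 15.8 and 44.5 (−2.37). After thinning, Irx1 was found in 18.9% and 17.6% of the Fev wells that were not marker-rich (106 and 68 wells) and in 2.17% and 6.67% of insulin wells, beside 1.82% and 0 of 68 marker-rich wells (0 of 68 allows a share of up to 4.41%). Runx1t1, a transcriptional corepressor, was lower as well, at 77.0 and 75.1 CPM against 426 and 353 (−2.27).

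Secretory genes were higher in insulin wells than in Fev wells, with the same exceptions as above. Scg2 gave 287 and 321 CPM in Fev wells (2.22), Iapp 3026 and 3509 (1.70), Pcsk2 0.66, Pcsk1 0.65 and Chga 0.48, the last 2 not called without the block. Chgb was lower in insulin wells (10163 and 6487 CPM in Fev wells; −0.95), as was Pam (−0.76). Of 19 granule genes 10 were higher and 3 lower (median 0.65). Of 25 folding genes 23 were higher and 1 lower (median 1.38, beside −0.014 over all genes), and 21 to 23 were higher over the alternatives. Hspa5 gave 1613 and 1774 CPM in Fev wells (1.22), Sdf2l1 34.3 and 44.7 (2.41), and Creld2 (2.26), Hyou1 (2.09), Ero1lb (2.03), Calr (1.40) and Hsp90b1 (1.32) were higher too.

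Mki67 differed by −4.70 from Fev wells and 21 of 29 genes of dividing cells were lower. Without marker-rich wells Mki67 gave −0.79 and was not called, and 1 of 23 genes of the list was called, as higher. Some Fev wells were themselves marker-rich, and Fev was found in these wells at the shares given above. Lyz1, for example, gave −5.96 with them and −1.0 without. Atf3 gave −2.33 with them and −0.66, not called, without. The 10 lowest genes by the naming rule were again mostly macrophage genes, among them Clec4n, Fcrls and Lyz2. The cell cycle inhibitor gene Cdkn1c was higher (0.56), a call lost without the marker-rich wells (0.43), with DESeq2 and without the block, and the growth arrest gene Gadd45a was higher by 1.17.

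The third comparison set insulin wells against glucagon wells of the same plates, chosen by the same rule on Gcg, of which there were 40 at E13.5 and 50 at E14.5. It asks how the 2 hormone cell types differed at these stages. Of 11577 genes, 1159 (10.0%) were higher in insulin wells and 917 (7.92%) lower. Without marker-rich wells 1337 were higher and 1036 lower.

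Genes at or near 0 in glucagon wells led this comparison. Slc2a2 had 0 transcripts in the E13.5 and 5 in the E14.5 glucagon sum, and its fitted difference was 6.82 ± 0.40 (adjusted p = 1.27e-08 by edgeR's quasi-likelihood test). Sytl4 gave 17.5 and 19.3 CPM in glucagon wells (5.69), Nnat 249 and 307 (5.46) and Npy 39.7 and 89.4 (5.22). Tmem215 (6.58), Frzb, a secreted Wnt antagonist (6.43), Adra2a (6.15), Derl3 (5.66) and Syndig1l (5.62) were higher by similar steps. C2cd4a had 0 and 1 transcripts in the glucagon sums, too few for a fold.

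Most beta-cell factors were higher in insulin wells than in glucagon wells. Of 18 tested, 11 were higher and 1 lower, with a median of 0.50 beside −0.021 over all genes. Pdx1 gave 4.67 and 11.6 CPM in glucagon wells (2.39 ± 0.34), Nkx6-1 31.5 and 61.7 (2.31) and Mlxipl 112 and 150 (2.70 ± 0.11, adjusted p = 4.5e-10 by edgeR's quasi-likelihood test). Pax4 was higher here, at 7.0 and 17 CPM in glucagon wells (1.90). Bach2 (1.89), Nkx2-2 (0.67) and Pax6 (0.35; not called with DESeq2 or without the block) were higher, and Isl1, a factor of all islet cells, was lower (−0.53).

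Glucagon wells held the alpha-cell program. Of 20 alpha-cell genes 17 were lower in insulin wells and 1 higher, with a median of −2.15. Irx1 (chr13:71957921-71963723) gave 489 and 607 CPM in glucagon wells against 9.50 and 20.8 (−4.94), and Irx2 741 and 790 against 15.8 and 44.5 (−4.39). Calcr (chr6:3685680-3764714), the calcitonin receptor gene, had 0 and 1 transcripts in the insulin sums and 116 and 87 in the glucagon sums. Rgs4 (−5.67), Gria2 (−5.12), Gyk (−4.90), Etv1 (−3.84), Peg10 (−1.97), Slc38a5 (−1.74) and Ttr (−1.10) were lower in insulin wells. The glucagon receptor gene Gcgr was higher in insulin wells (1.64), a call lost with DESeq2 and without the block.

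Genes known from liver were also lower in insulin wells than in glucagon wells. Serpina1a gave −4.40, Serpina1d −4.30 (a gene that overlaps Serpina1b) and Serpinf2 −4.26. All 5 hepatocyte markers tested were lower, with Afp at 1 and 1 transcripts and Fgb at 0 and 1 in the insulin sums. Among peptide genes, Edn3 (−4.13), Cartpt (−3.59), Gast (−2.19) and Cck (−1.14) were lower, and Gip was higher (1.71). Gast and Gip were not called with DESeq2, and neither they nor Cck without the block. The D cyclin gene Ccnd2 was lower (−2.30). Mki67 stood at 3.5 and 6.94 CPM in glucagon wells, and its difference of −1.19 was not called.

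Folding genes were higher in insulin wells than in glucagon wells too. All 25 tested were called higher (median 1.77), and 23 to 25 over the alternatives. Hspa5 gave 1228 and 1060 CPM in glucagon wells (1.79), Sdf2l1 22.2 and 15.4 (3.54), and Ero1lb (3.11), Creld2 (2.83), Edem1 (2.71) and Hyou1 (2.35) were higher too, as was Bhlha15 (2.48). The granule list was split, with 7 of 19 higher and 4 lower. Iapp (1.76), Scg2 (2.21), Pcsk1 (2.14) and Chga (0.89) were higher, Resp18 (−1.03) and Pam (−0.92) lower, and Chgb gave 0.30 and was not called. Immediate early genes, which also answer to dissociation, were higher in 9 of 20 cases, among them Atf3 (1.53), Fosb (1.37), Ier2 (1.20) and Fos (1.09), calls that were lost without the block. In the first comparison 14 of the same 20 were lower, such as Jun (−0.96; not called without the block) and Klf2 (−2.80), with a median of −0.76. Without marker-rich wells 6 were lower and 4 higher there (median −0.04).

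Imprinted genes were split in each comparison. Beside Nnat, the growth regulator gene Dlk1 was higher in insulin wells by 1.93 against the other wells, 1.56 against Fev wells and 2.25 against glucagon wells. The non-coding RNA gene Meg3 was higher by 0.93, 0.66 and 0.84. Mest was lower in each, with −3.89, −3.6 and −2.38 in the same order, the last 2 not called without the block, and it overlaps Copg2. Peg10 was lower in each as well, with −0.86, −1.03 and −1.97. Of the 19 imprinted genes tested, 6, 7 and 4 were higher and 9, 7 and 9 lower, with medians of −0.34, −0.15 and −0.3. Over all genes 17.0%, 9.81% and 10.0% were higher and 19.4%, 11.2% and 7.92% lower. The Notch ligand gene Dll3 was lower in each comparison as well (−3.33, −2.75 and −2.86), while Krt19, a keratin gene of ducts, was higher in each (1.13, 1.63 and 2.72), the first 2 not called with DESeq2. Of 17 progenitor and duct markers, 2, 2 and 1 were higher and 11, 5 and 3 lower, with medians of −0.58, −0.19 and −0.2. Krt19 thus went against most called genes of its list.

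Insulin wells differed among themselves in how much insulin they held, and folding genes went with it. Across wells, Spearman's rho between a gene's share and the insulin share was computed on each MIP-GFP plate (n = 46 and n = 60) for 5192 genes. All wells of a plate share library and depth effects, so these values are a description. Calr gave 0.533 and 0.50, Pdia6 0.541 and 0.479, Hsp90b1 0.506 and 0.463, P4hb 0.445 and 0.605, and Ero1lb 0.447 and 0.481. Rpn2 (0.637 and 0.464) and Ssr4 (0.474 and 0.664), which serve glycosylation and import at the endoplasmic reticulum, and Syndig1l (0.514 and 0.445) were similar. Of 23 folding genes detected widely enough, 20 were positive on both plates and none negative on both, with medians of 0.232 and 0.298. Over all genes 1541 were positive and 1359 negative on both plates, with medians of −0.02 and 0.029. The 10 genes with the lowest values were Hsp90ab1, Dbpht2, Hsp90aa1, 1700086L19Rik, Fubp1, Wnk3, Hspa8, Riok1, Marcksl1 and Dnaja1. Among these, 4 encode cytosolic chaperones or their partners: Hsp90ab1 gave −0.489 and −0.469, Hsp90aa1 −0.419 and −0.475, Hspa8 −0.581 and −0.353 and Dnaja1 −0.483 and −0.338. Of 11 alpha-cell genes 8 were negative on both plates.

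The 24 folding genes together took 0.681%, 1.88% and 2.75% of the non-hormone transcripts in the lowest, median and highest E13.5 insulin well, and 0.676%, 1.83% and 3.29% at E14.5. Fev wells had medians of 0.729% and 0.753%, and glucagon wells of 0.532% and 0.534%. The ranges overlapped, since Fev wells reached 2.06% and 2.0% and glucagon wells 1.49% and 1.32%, but the insulin medians lay above every glucagon well. The folding share gave a rho of 0.48 and 0.547 with the insulin share. Depth gave 0.0156 and 0.396 with the insulin share, and 0.17 and 0.196 with the folding share.

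**Figure D4:**
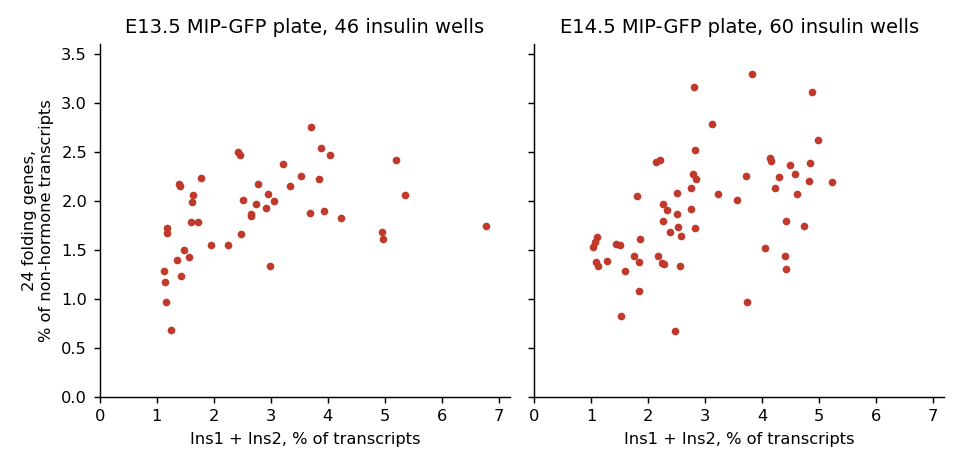
Share of 24 folding genes among non-hormone transcripts (percent) against the insulin share (percent of all transcripts) in each insulin well, at E13.5 (46 wells) and E14.5 (60 wells). Wells with more insulin tend to hold more folding transcripts, with Spearman's rho of 0.48 and 0.547.

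The E13.5 and E14.5 insulin sums were close to each other. Of 4321 genes at 50 CPM or more, 99.7% lay within 2-fold, and Spearman's rho across genes was 0.944, a value over genes that are not independent replicates. With 1 sum per stage there was no test. The 10 genes higher at E14.5 included the immediate early genes Nr4a1 (29.6 and 92.4 CPM), Arc (47.5 and 153.6) and Dusp1 (36.9 and 97.0), the small GTPase gene Gem (19 and 85.5) and the adult globin gene Beta-s (13.7 and 131.1). The 3 lower genes were Asna1, Cct7 and Ppp1ca.

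The early insulin wells were then set against insulin wells of the 2 E15.5 MIP-GFP plates, chosen by the same rule: 140 of 358 kept wells in experiment EP10 and 123 of 190 in EP17. No gene of 9805 was called in either direction (0% and 0% by edgeR's quasi-likelihood test), with 578 at an unadjusted p under 0.05 and 11 called by DESeq2. The fit has 2 experiments on each side and 2 residual degrees of freedom. Leaving out 1 experiment gave 1 call without EP12, 4 without EP14, 1006 without EP10 and 227 without EP17, so the count turns on which experiments are used. In these fits 1 side holds a single sum, assumed to vary like the pair on the other side, with 1 residual degree of freedom. EP17 was also shallow, with a median of 8590 transcripts per insulin well against 22460 in EP10. An E18.5 plate (EP16) was used for values only. Its titles say E14.5 while its stage characteristic says E18.5.

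Some genes had levels that did not overlap between the early and the E15.5 sums. The edgeR fit with the filter on low counts called none of them. Among those whose levels follow, the smallest adjusted p was 0.166 by edgeR's quasi-likelihood test. With 2 sums on each side, genes can separate in this way by chance, and the share over all genes is not given here. Non-overlap alone therefore shows no stage difference. DESeq2 called Slc30a8, Ccnd2 and Sox11, and edgeR without the filter on low counts also called Cdkn1c, Cck and Prlr. Beyond these genes, DESeq2 called Nr4a1 lower in the early wells (−2.03). Without the filter, edgeR called Nr4a1 (−1.99), Atf3 (−2.25) and Sox9 (−1.60) lower as well. The 20 immediate early and dissociation genes had a median of −1.01 beside −0.007 over all genes in the main fit, which called none of them. Slc30a8 gave 88.7 and 96.4 CPM in the early sums against 299 and 216 at E15.5 and 871 in EP16 (−1.59 ± 0.22, adjusted p = 0.166 by edgeR's quasi-likelihood test). Ccnd2 gave 26.4 and 24.3 CPM against 104 and 58.2 (667 in EP16, −1.82), and Prlr 3.17 and 8.08 against 25.7 and 12.3 (435 in EP16, −1.80). The early Prlr values lay near the floor, with transcripts in 3 of 46 and 7 of 60 wells and at most 1 and 3 per well. Sox11, a transcription factor gene of immature cells, was at 110 and 82.6 CPM early, 34.3 and 14.1 at E15.5 and 35.1 in EP16 (1.76 ± 0.34). Cdkn1c gave 205 and 118 against 58.4 and 56.4 (1.36), Cck 139 and 86.6 against 45.9 and 53.8 (1.06) and Pax4 45.4 and 45 against 19.9 and 22 (1.01).

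The early and E15.5 levels of 4 other genes were close. Sytl4 gave 912 and 882 CPM early and 883 and 797 at E15.5 (−0.02), Nnat 12236 and 11027 against 12205 and 11419 (−0.14), Npy 2022 and 2418 against 2046 and 2764 (−0.25) and Hspa5 3624 and 3760 against 4096 and 3335 (−0.13). In EP16 Nnat stood at 6007 CPM and Npy at 805, below all of the earlier sums. The early levels of Slc2a2 and Iapp lay below those at E15.5, and edgeR called neither. Slc2a2 gave 226 and 272 CPM early, 373 and 306 at E15.5 and 580 in EP16 (−0.56). Iapp gave 9481 and 10345 CPM early against 13204 and 20439 (−0.90). It was called without the filter on low counts, and without EP10 (−1.22) or EP17 (−0.48). Without EP17 Slc2a2 was called as well (−0.64). The median insulin share itself was 2.58% and 2.66% early, 3.82% in EP10, 8.95% in EP17 and 13.4% in EP16, a description of the values that chose the wells.

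**Figure D5:**
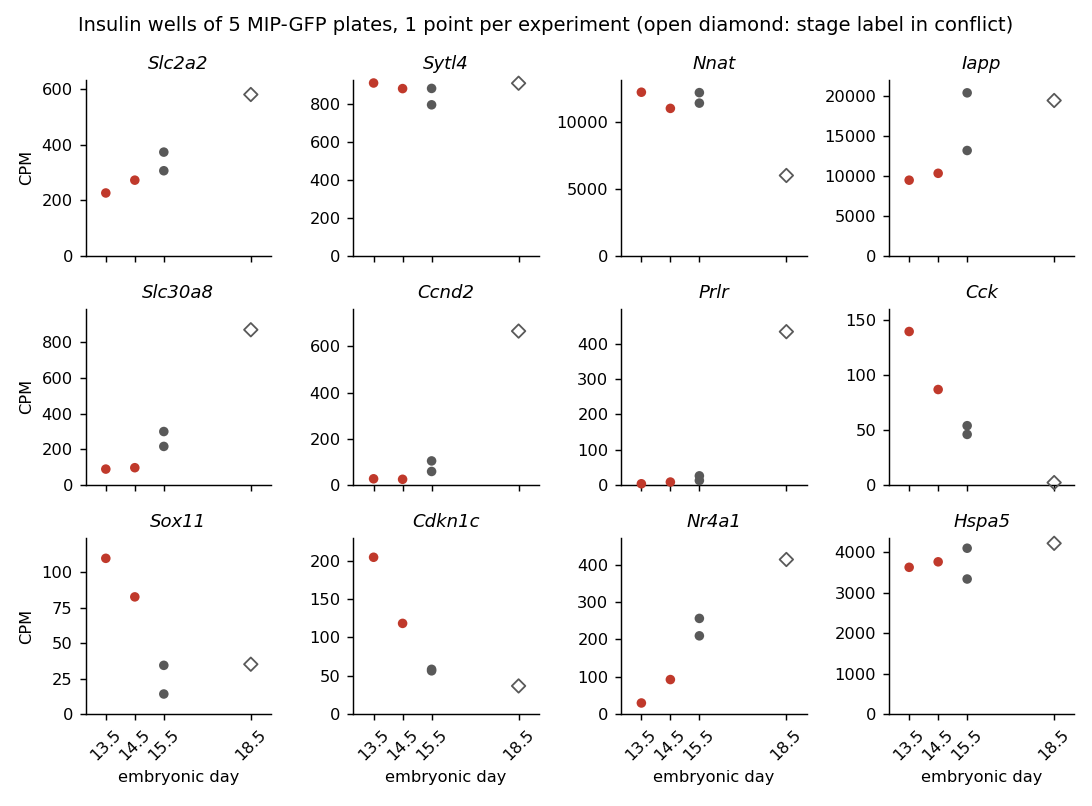
Levels of 12 genes (CPM of non-hormone transcripts) in insulin-well sums of the MIP-GFP plates at E13.5 and E14.5 (red), at E15.5 in 2 experiments (grey) and in the E18.5 experiment (open diamond). Slc30a8, Ccnd2 and Prlr are lowest in the early sums, and Sox11, Cdkn1c and Cck highest. The early Prlr values rest on few transcripts.

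The 8 insulin wells of the live plates, which no GFP gate selected, carried the same markers. Their insulin shares were 1.21%, 1.49% and 6.28% at E13.5 and 1.04%, 1.93%, 1.97%, 3.49% and 4.60% at E14.5. In the same order Sytl4 gave 5, 5 and 8 transcripts, and 29, 20, 13, 27 and 43. Slc2a2 gave 0, 1 and 4, and 5, 7, 5, 6 and 14. All 8 wells held Sytl4 and 7 held Slc2a2, while Irx1 was at 0 in each. Nnat gave 122, 112 and 119 transcripts, and 190, 288, 105, 311 and 268. Npy varied most, with 0, 2 and 31 transcripts at E13.5 and 13, 57, 0, 166 and 46 at E14.5, so it was at 0 in 2 of the 8. Gcg was at 0 in 3 of the 8. Hspa5 gave 58, 41 and 42 transcripts at E13.5, and 45, 53, 109, 96 and 241 at E14.5.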

How the data were processed

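Transcripts were measured by SORT-seq in sorted single cells. The table deposited by the authors holds expected counts, numbers of transcripts estimated from unique molecular identifiers and not scaled for depth. BWA, Seurat and the build mm10 appear without versions in the submitters' processing notes. Of the wells in the table, 1536 matched no listed library and were not used. For the E14.5 live plate the labels name 3 libraries, yet 384 wells held transcripts. The values carry a correction for identifier collisions, with a ceiling of 1597.

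Counts were rounded and summed per experiment and group, without the 6 hormone genes. The main test was the quasi-likelihood test of edgeR 4.0.16 in R 4.3.3 (TMM, filterByExpr, Benjamini-Hochberg at 0.05), with the experiment as block where groups came from the same plates. DESeq2 1.42.0 was an alternative. Cells were sorted singly, and doublets were not called, so mixed wells are not excluded. The scripts were tested on simulated data. Named genes were the 10 largest calls each way among genes at 50 CPM or more that moved the same way in both experiments, the 10 highest and lowest correlations, and genes of the lists. A few others were named after their values were seen. Some genes of the lists are counted but not reported here by name. Gene positions are from GENCODE vM21 (mm10). The members and lists were chosen with earlier results of these data known.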

Additional observations from a re-analysis of the deposited data

How the results depend on the processing

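Directions held for nearly all genes named. Calls with DESeq2 numbered 2131 against all other MIP-GFP wells, 1171 against Fev wells, 1073 against glucagon wells and 11 between the early and the E15.5 insulin wells, where edgeR called 4366, 2435, 2076 and 0. With only the wells the authors kept, the first 2 counts were 2712 and 1544. The numbers pair sums of the same plates, and without the replicate block the counts were 2910, 1503 and 1371. Leaving out an experiment left no residual degrees of freedom in these 3 comparisons, so no such count was possible. Against E15.5, leaving out an experiment gave 1 to 1006 calls, and no filter on low counts gave 134. With the live plates pooled in, the first comparison gave 6400 calls and the signs of Chgb (0.30), Pam (0.32), St18 (0.24), Rfx6 (0.60) and Tubb5 (−0.62) turned. Against E15.5, Sytl4 turned to 0.0075 with an insulin limit of 2% and ranged from −0.050 to 0.0041 when an experiment was left out, the highest without EP14, and Npy from −0.49 to 0.052, the highest without EP17. At the 2% limit insulin wells were 7.73% and 13.4% of MIP-GFP wells and 0.288% and 0.627% of live wells, and with the authors' kept wells 4.39% of E14.5 live wells. The cause was not tested. Of 84, 63, 76 and 17 genes followed in the 4 comparisons, 63, 43, 62 and 2 kept their side of the threshold everywhere. With 2 experiments, 1 per stage, stage and experiment cannot be told apart, and depth limits genes of under about 50 CPM.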
